A study of Mus musculus with 6 samples.

Results

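Kv2 and Kv3 delayed rectifier channels were described here by 4 pore-forming subunit genes, Kcnb2 (Kv2.2), Kcnc1 (Kv3.1), Kcnc2 (Kv3.2) and Kcnc4 (Kv3.4). They were chosen by gene name among the 49568 genes measured. RNA was sequenced from the preBötzinger complex (preBötC), the brainstem site of the inspiratory rhythm, of Dbx1CreERT2; Rosa26tdTomato mice at postnatal day 2. Each sample held the cytoplasm of 15 neurons drawn into patch pipettes, with 3 Dbx1 and 3 non-Dbx1 samples, and each sample came from a mouse of its own, of either sex. Dams of both groups received tamoxifen during gestation, so that cells descended from Dbx1-expressing progenitors carried tdTomato. Red fluorescent neurons made up the Dbx1 group and neurons without fluorescence the non-Dbx1 group, so a Dbx1-derived neuron that had escaped recombination would count as non-Dbx1. The comparison asked whether rhythm-generating Dbx1 neurons differ from their neighbors in the channels that repolarize them.

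Delayed rectifiers open upon depolarization and carry outward K+ current that repolarizes the action potential. Kv2 channels open at moderate depolarization, gate slowly and shape the interval between spikes, and they also form clusters at the cell body that tie the plasma membrane to the endoplasmic reticulum. Kv3 channels open only at strongly depolarized potentials and close quickly, which permits narrow spikes and high firing rates. Kv3.1 and Kv3.2 give sustained currents, whereas Kv3.4 inactivates rapidly. Both families assemble as tetramers within the family, and Kv2 subunits also accept electrically silent subunits that pass no current alone.

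The 4 genes lie on different chromosomes. On GRCm38 (mm10), Kcnb2 (ENSMUSG00000092083) spans chr1:15287254-15723750, Kcnc1 (ENSMUSG00000058975) chr7:46396497-46438704 and Kcnc2 (ENSMUSG00000035681) chr10:112271121-112467024, all on the plus strand. Kcnc4 (ENSMUSG00000027895) spans chr3:107438303-107459552 on the minus strand. As the example of how far a Kv2 and a Kv3 member differ, and hence of how well short reads tell them apart, 78 coding bases around the conserved K+ selectivity filter are shown for Kcnb2 and Kcnc2, from the GENCODE vM21 transcripts, 5′ to 3′ on the coding strand. Capitals mark the 18 bases that encode the filter.
Kcnb2: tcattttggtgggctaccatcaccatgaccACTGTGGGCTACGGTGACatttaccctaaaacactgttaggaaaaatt
Kcnc2: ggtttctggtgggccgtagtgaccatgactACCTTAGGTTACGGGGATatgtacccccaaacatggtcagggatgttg

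These windows lie at chr1:15710016-15710093 in exon 3 of 3 for Kcnb2 and at chr10:112456199-112456276 in exon 3 of 5 for Kcnc2. They were identical at 50 of 78 bases (64.1%), and at 12 of the 18 filter bases. Over all annotated transcripts of the pair, the longest exact stretch in common was 16 bases, shorter than the shortest read of 35 bases, so no read without mismatches could have come from both genes. Shared stretches among the Kv3 members Kcnc1, Kcnc2 and Kcnc4 were not examined. Reads were summed over all transcripts of a gene and without regard to strand, so splice variants were not separated. The spans of Kcnc1, Kcnc2 and Kcnc4 held no other annotated gene, whereas that of Kcnb2 holds Gm38116, Gm37138 and, on the opposite strand, Gm25227.

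Libraries held between 6464675 and 9432958 reads on genes, with a mean of 7815666, as recovered from the steps of the RPKM values. Neuronal markers summed to between 993 and 1708 RPKM, and both groups held Slc17a6, the vesicular glutamate transporter of excitatory neurons (47.2 to 128 RPKM in Dbx1 and 13.6 to 35.1 in non-Dbx1), as well as the glycine transporter gene Slc6a5 (13.1 to 64.2 RPKM in Dbx1 and 17.5 to 53.6 in non-Dbx1). Astrocyte markers summed to between 21.4 and 39.5 RPKM and microglial markers to between 0 and 13.3, with Tmem119 at 0 in all 6 samples. Endothelial markers summed to between 0.0104 and 65.4 RPKM, with Cldn5 at 63.7 RPKM in non-Dbx1 replicate 2. Motor neuron markers summed to between 0.0448 and 17.3 RPKM, with Isl1 at 13.3 RPKM in non-Dbx1 replicate 3 and at 0 in every other sample. Oligodendrocyte lineage markers summed to 434 RPKM in non-Dbx1 replicate 1 and reached at most 73.6 RPKM in the Dbx1 samples. Hemoglobin genes summed to between 89.6 and 505 RPKM in Dbx1 samples and to between 732 and 13950 RPKM in non-Dbx1 samples, again highest in non-Dbx1 replicate 1. None of these markers had FDR under 0.1 in the limma test of Dbx1 against non-Dbx1 described below.

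All 4 channel genes were detected in each of the 6 samples. Kcnc4 had the highest mean level over the 6 samples, 18.4 ± 13.7 RPKM (SD, n = 6), followed by Kcnc1 (7.17 ± 1.99), Kcnc2 (5.91 ± 3.57) and Kcnb2 (4.43 ± 3.04). None of the 4 differed between Dbx1 and non-Dbx1 neurons with FDR under 0.1, a threshold that 0.00568% of the 17614 genes tested passed (limma on log2(RPKM + 1), Benjamini-Hochberg adjusted). For every member the groups overlapped, and the sample-to-sample range within a group was as wide as 5.46-fold for Kcnc4 and 6.42-fold for Kcnb2. In these pooled harvests, fewer cells that express a gene and less RNA per cell cannot be told apart.

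**Figure D1:**
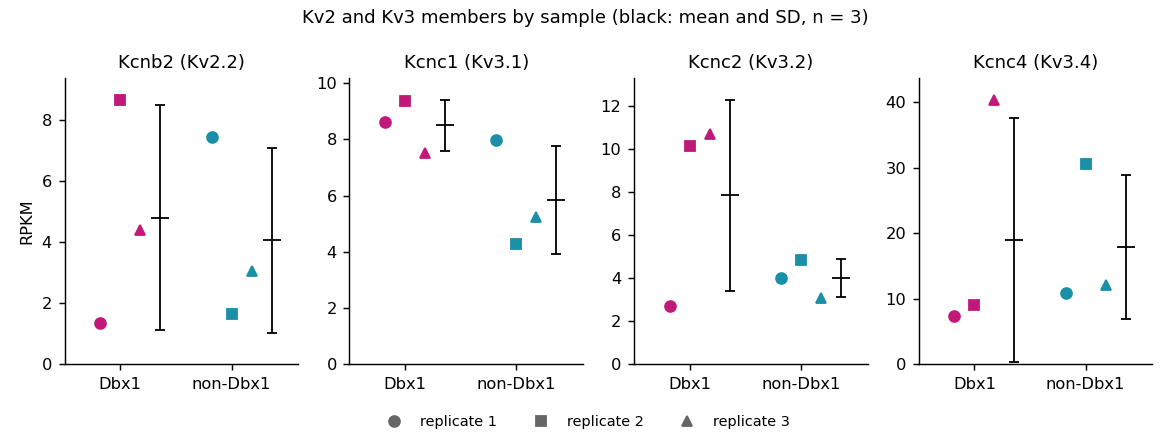
RPKM of the 4 genes (vertical axes, each from 0) in the 3 Dbx1 samples (magenta) and the 3 non-Dbx1 samples (teal), with the replicate number given by the symbol and the mean and SD of each group in black. Kcnc1 was the most even of the 4, from 4.28 to 9.35 RPKM, and in Kcnc4 a single sample of each group lay far above the others, at 40.4 and 30.6 RPKM.

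Kcnb2 encodes the slowly gating Kv2.2 subunit. It measured 1.35, 8.67 and 4.39 RPKM in Dbx1 replicates 1, 2 and 3 and 7.46, 1.65 and 3.05 RPKM in non-Dbx1 replicates 1, 2 and 3. Each group thus held a sample under 2 RPKM and a sample above 7 RPKM, and the ranges overlapped almost completely. The means were 4.80 ± 3.68 RPKM in Dbx1 and 4.05 ± 3.03 RPKM in non-Dbx1 (SD, n = 3 each; L2FC = 0.14, SE 0.70, 95% interval -1.46 to 1.75, limma FDR = 0.990, exact permutation p = 0.8). Here L2FC is the mean log2(RPKM + 1) of the Dbx1 samples minus that of the non-Dbx1 samples. Between 202 and 1228 reads stood behind these values, and the counting interval of the lowest sample (1.17 to 1.55 RPKM, 95%, Poisson) lay far from that of the highest (8.19 to 9.17 RPKM). These intervals take in counting error alone, because PCR copies of a cDNA are not separate molecules. The sign turned when Dbx1 replicate 2 (L2FC = -0.34) or non-Dbx1 replicate 2 (L2FC = -0.24) was left out.

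Kcnc1 encodes Kv3.1, the sustained Kv3 subunit best known from fast-spiking neurons. It measured 8.62, 9.35 and 7.53 RPKM in Dbx1 replicates 1, 2 and 3 and 7.97, 4.28 and 5.25 RPKM in non-Dbx1 replicates 1, 2 and 3. The Dbx1 samples lay close together, and of the non-Dbx1 samples only replicate 1 reached into their range. Means were 8.50 ± 0.92 RPKM in Dbx1 and 5.83 ± 1.92 RPKM in non-Dbx1 (SD, n = 3 each), which did not pass the test (L2FC = 0.51, SE 0.39, 95% interval -0.38 to 1.40, limma FDR = 0.943, exact permutation p = 0.2). Reads on Kcnc1 ranged from 419 to 806.

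Kcnc2 encodes Kv3.2, which resembles Kv3.1 in its sustained current. It measured 2.70, 10.1 and 10.7 RPKM in Dbx1 replicates 1, 2 and 3 and 4.02, 4.85 and 3.08 RPKM in non-Dbx1 replicates 1, 2 and 3. Dbx1 replicates 2 and 3 lay above all non-Dbx1 samples, whereas Dbx1 replicate 1 was the lowest of the 6. Means were 7.84 ± 4.46 RPKM in Dbx1 and 3.98 ± 0.88 RPKM in non-Dbx1 (SD, n = 3 each), the largest L2FC of the 4 members, and it too missed the threshold (L2FC = 0.67, SE 0.56, 95% interval -0.61 to 1.95, limma FDR = 0.949, exact permutation p = 0.4). Without Dbx1 replicate 1 the L2FC rose to 1.21 (limma FDR = 0.906), and without Dbx1 replicate 3 it was 0.38. The smallest number of reads that gives these values ranged from 133 to 472, and the true number may be a multiple of it, because the exon length used by the authors for this gene could not be matched.

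Kcnc4 encodes Kv3.4, the rapidly inactivating Kv3 subunit. It measured 7.41, 9.02 and 40.4 RPKM in Dbx1 replicates 1, 2 and 3 and 10.9, 30.6 and 12.1 RPKM in non-Dbx1 replicates 1, 2 and 3. A single sample of each group stood well above the rest, Dbx1 replicate 3 and non-Dbx1 replicate 2, and the other samples lay between 7.41 and 12.1 RPKM. Means were 18.9 ± 18.6 RPKM in Dbx1 and 17.9 ± 11.0 RPKM in non-Dbx1 (SD, n = 3 each; L2FC = -0.17, SE 0.65, 95% interval -1.64 to 1.31, limma FDR = 0.988, exact permutation p = 0.8). Reads ranged from 216 to 1031, and the counting interval of Dbx1 replicate 3 (38.0 to 43.0 RPKM) did not reach that of non-Dbx1 replicate 2 (28.7 to 32.6 RPKM). Without Dbx1 replicate 3 the L2FC was -0.89, whereas it turned positive when Dbx1 replicate 1 (0.26), Dbx1 replicate 2 (0.13) or non-Dbx1 replicate 2 (0.28) was left out.

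**Figure D2:**
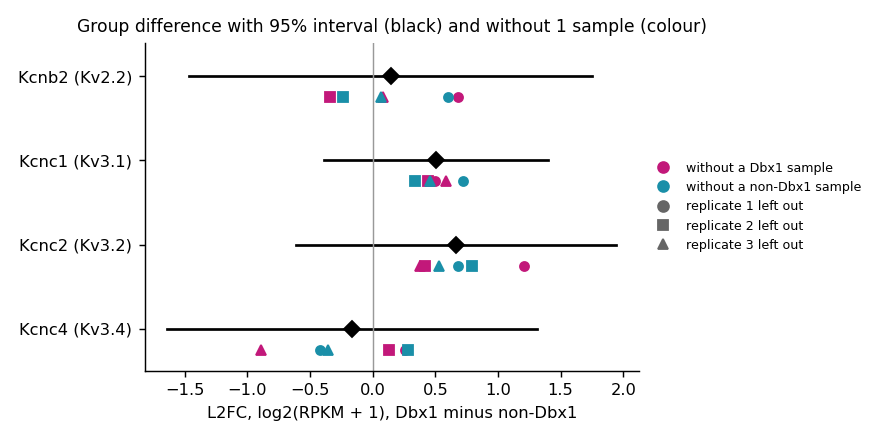
L2FC on the log2(RPKM + 1) scale, Dbx1 minus non-Dbx1 (horizontal axis), for each of the 4 genes, with black diamonds for all 6 samples, black lines for limma's 95% interval and colored symbols for fits with 1 sample left out. All 4 intervals include 0, and for Kcnb2 and Kcnc4 the colored symbols lie on both sides of 0.

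Counted together, 0 of the 4 members had FDR under 0.1, 0 had an unadjusted limma p under 0.05 and 0 had groups that did not overlap. Without non-Dbx1 replicate 1, the library with the most oligodendrocyte and hemoglobin RNA, the L2FC was 0.60 for Kcnb2, 0.72 for Kcnc1, 0.68 for Kcnc2 and -0.42 for Kcnc4, with limma FDR between 0.892 and 0.965. Over the 17614 genes tested, 0.00568% (1 gene) had FDR under 0.1 and 5.2% had an unadjusted p under 0.05. Groups did not overlap in 5.35% of genes with Dbx1 higher and in 5.24% with non-Dbx1 higher. An exact two-sided test of 3 samples against 3 cannot go below p = 0.1, and the intervals above leave room for differences of over 2-fold in either direction for Kcnb2 and Kcnc4. In 3 of 4 members the L2FC was above 0, against 8953 of the 17614 genes tested, and 4 members are too few to show a lean. Their median was 0.33 against 0.01 over all genes tested. Kcnc1 and Kcnc2 kept a positive sign under every alternative run, but these runs reuse the same samples. The 2 other filters, limma without the trend and the replicate block leave the L2FC unchanged.

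The members also differed in how much they varied over the 6 samples. Among the 4849 genes whose mean RPKM lay between those of Kcnb2 and Kcnc4, the median SD of log2(RPKM + 1) was 0.60 (quartiles 0.43 and 0.88). Kcnc4 (SD 0.94) exceeded 78.1% of these genes and Kcnb2 (SD 0.85) 72.5%. Kcnc1 (SD 0.38) was steadier than most, with only 19.0% of genes below it, and Kcnc2 (SD 0.72) exceeded 63.0%.

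Levels of the members were then compared within samples, since RPKM is a level per exon length. Kcnb2 was below Kcnc1 in 6 of 6 samples, by 0.75 ± 0.72 on the log2(RPKM + 1) scale, and below Kcnc4 in 6 of 6 samples, by 1.77 ± 1.36 (SD, n = 6). Both differences reached the smallest p that 6 sign changes can give (exact two-sided sign-change permutation test, p = 0.03125; Benjamini-Hochberg adjusted over 6 pairs, 0.09375, under the threshold of 0.1). Neither passed with any 1 sample left out (exact permutation test, adjusted p between 0.125 and 0.1875). Each stayed at 0.0625, the smallest p of 5 sign changes (exact permutation test), with Kcnb2 lower in every sample kept. The loss of the call thus cannot be told apart from the smaller number of samples. The other 4 pairs did not pass. Kcnc2 was below Kcnc4 in 5 of 6 samples (mean difference -1.37, exact permutation test, adjusted p = 0.125), and Kcnc1 was below Kcnc4 in 4 of 6 (-1.02, exact permutation test, adjusted p = 0.1875). Kcnb2 against Kcnc2 (-0.40, exact permutation test, adjusted p = 0.2625) and Kcnc1 against Kcnc2 (0.35, exact permutation test, adjusted p = 0.2812) were neighbors in the order that did not differ beyond their spread.

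This order depends on the exon length by which reads were divided. For Kcnb2, Kcnc1 and Kcnc4 the deposited RPKM matched reads divided by the summed length of all distinct annotated exons, in which overlapping exons of different transcripts count more than once. That length was 18808 bases against 15165 bases of merged exons for Kcnb2, 11447 against 9458 for Kcnc1 and 3667 in both cases for Kcnc4, which has 1 annotated transcript. For Kcnc2 the recovered length of 6196 bases matched neither the summed length (13708) nor the merged length (7138) of GENCODE vM21. With merged lengths the mean levels were 18.4 RPKM for Kcnc4, 8.68 for Kcnc1, 5.49 for Kcnb2 and 5.13 for Kcnc2, or 10.3 for Kcnc2 if its reads were 2 times the recovered number. Kcnb2 was then below Kcnc4 in 5 of 6 samples and the pair no longer passed (mean difference -1.53, exact permutation test, adjusted p = 0.1406), whereas Kcnc2 was below Kcnc4 in 6 of 6 samples and did (-1.54, adjusted p = 0.09375, exact permutation test). Kcnb2 against Kcnc1 still passed with merged lengths (-0.75, 6 of 6 samples, exact permutation test, adjusted p = 0.09375). With the Kcnc2 reads doubled as well no pair passed, and Kcnc2 was below Kcnc4 in 5 of 6 samples (-0.69, exact permutation test, adjusted p = 0.1875). The values of Kcnb2 against Kcnc1 do not involve Kcnc2 and stayed the same (exact permutation test, unadjusted p = 0.03125). Their adjusted p rose to 0.1875 because Kcnc2 against Kcnc4 no longer reached the smallest p. Differences between the groups for a single gene are unaffected by its length except through the pseudocount.

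The member with the highest RPKM changed from sample to sample. Kcnc4 led in 4 of the 6 samples, Dbx1 replicate 3 and all 3 non-Dbx1 samples, Kcnc1 led in Dbx1 replicate 1, and Kcnc2 led in Dbx1 replicate 2. In Dbx1 replicate 2 that lead depends on the exon length, since with merged lengths Kcnc1 held 38.9%, Kcnc4 31.0% and Kcnc2 30.2% of the summed level of the 3 Kv3 members, and Kcnc2 held 46.3% if its reads were also doubled. Counting intervals (95%, Poisson, recovered reads) there overlapped for Kcnc2 (9.225 to 11.07 RPKM), Kcnc1 (8.72 to 10.02) and Kcnc4 (7.93 to 10.21). In Dbx1 replicate 1 those of Kcnc1 (8.03 to 9.25 RPKM) and Kcnc4 (6.45 to 8.46) overlapped as well. The summed level of the 3 Kv3 members was 18.7, 28.5 and 58.6 RPKM in Dbx1 replicates 1, 2 and 3 and 22.9, 39.7 and 20.4 RPKM in non-Dbx1 replicates 1, 2 and 3. Kcnc4 made up 39.6%, 31.7% and 68.9% of it in Dbx1 and 47.6%, 77.0% and 59.2% in non-Dbx1. Its share was highest in Dbx1 replicate 3 and non-Dbx1 replicate 2, and the groups overlapped. Kcnc1 made up between 10.8% and 46.0% and Kcnc2 between 12.2% and 35.5%. The Kcnc2 share lay between 10.5% and 30.2% with merged lengths and between 19.1% and 46.3% with its reads doubled as well. For scale, summed Kv1 subunits lay between 15.8 and 33.6 RPKM and summed Kv4 subunits, which carry A-type current, between 18.3 and 36.5 RPKM.

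**Figure D3:**
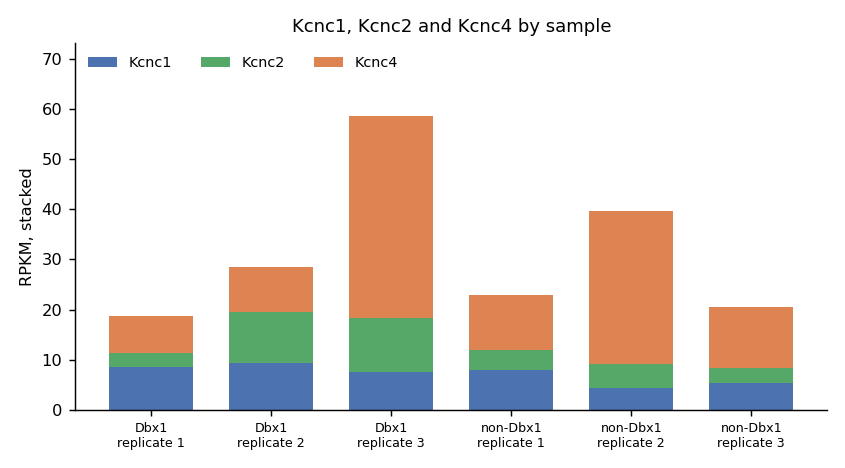
Stacked RPKM (vertical axis, from 0) of Kcnc1, Kcnc2 and Kcnc4 in each of the 6 samples (horizontal axis). The sum was highest in Dbx1 replicate 3 (58.6 RPKM) and non-Dbx1 replicate 2 (39.7 RPKM), the samples with the most Kcnc4.

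Partner genes of the same channels were taken from lists. Of 10 electrically silent Kv2 partners, 6 were tested, 0 had FDR under 0.1, and the median L2FC was 0.12. A mean of at least 1 RPKM was reached by 5 of the 10, namely Kcns2 (5.92), Kcns1 (3.33), Kcng2 (2.09), Kcns3 (1.77) and Kcnv1 (1.54). Kcns2 was present in all samples, from 2.19 to 9.35 RPKM. Kcng2 was detected in only 3 samples, at 4.68 and 6.63 RPKM in Dbx1 replicates 1 and 2 and 1.21 RPKM in non-Dbx1 replicate 1. Kcns3 exceeded 1 RPKM only in non-Dbx1 replicates 2 and 3 (5.08 and 4.78 RPKM), in which Kcng2 was at 0.

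Among accessory and anchoring genes, 4 were tested and 0 had FDR under 0.1, with a median L2FC of -0.32. Amigo1, a cell adhesion protein that accompanies Kv2 channels, measured 0.457, 2.69 and 2.87 RPKM in Dbx1 replicates 1, 2 and 3 and 6.22, 5.49 and 7.71 RPKM in non-Dbx1 replicates 1, 2 and 3. All non-Dbx1 samples lay above all Dbx1 samples, as in 5.24% of the genes tested, and the difference did not pass the correction (L2FC = -1.43, SE 0.57, limma unadjusted p = 0.0361, FDR = 0.912). Hemoglobin genes, given above, were likewise higher in all 3 non-Dbx1 samples, and their part in this difference was not tested. Vapa and Vapb, the endoplasmic reticulum proteins that bind Kv2 channels at membrane contacts, lay between 200.1 and 317.5 RPKM and between 5.81 and 13.5 RPKM. Kcne1l, a single-pass accessory subunit of the Kcne family, lay between 9.37 and 24.5 RPKM, whereas Kcne2, Kcne3 and Kcne4 were listed at 0 in all 6 samples.

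**Figure D4:**
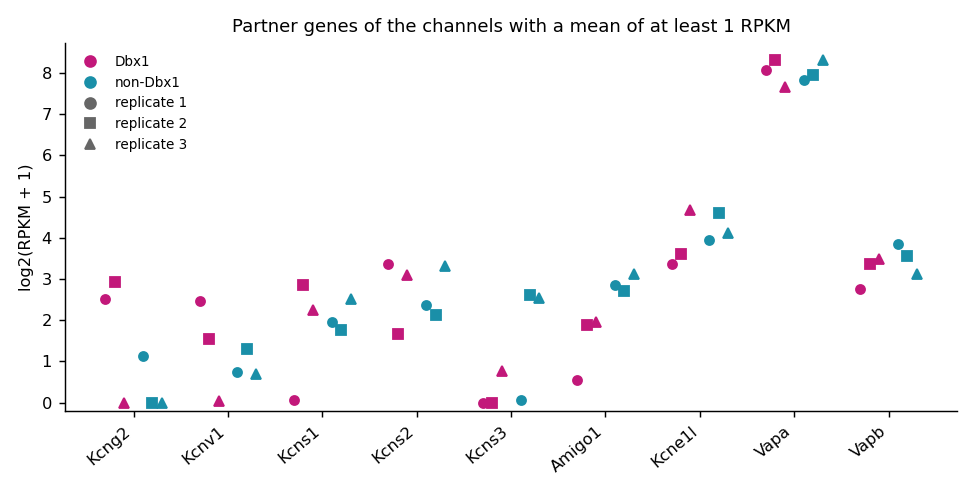
Level as log2(RPKM + 1) (vertical axis) of the listed partner genes with a mean of at least 1 RPKM, in Dbx1 samples (magenta) and non-Dbx1 samples (teal), with the replicate number given by the symbol. Amigo1 is the only one of these 9 genes whose groups did not overlap, Kcng2 and Kcns3 were at or near 0 in 3 of the 6 samples each, and Vapa was the highest, at 200.1 RPKM or more.

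Across the 6 samples the members did not follow a single pattern. Pearson correlations of log2(RPKM + 1) between members, given as a description over 6 samples that share depth and library, were 0.58 for Kcnb2 with Kcnc2, 0.53 for Kcnb2 with Kcnc1, 0.47 for Kcnc2 with Kcnc4, 0.30 for Kcnc1 with Kcnc2, -0.16 for Kcnb2 with Kcnc4 and -0.52 for Kcnc1 with Kcnc4. Among 4425 genes with a mean of at least 10 RPKM, those with the most similar pattern to Kcnb2 were Kctd6 (r = 0.976), Srrm1 (0.975) and Apba3 (0.973). For Kcnc1 they were Mrpl32 (r = 0.988), Tm2d3 (0.984) and Opn3 (0.981), and for Kcnc2 they were Fkbp2 (r = 0.987), Dpp6 (0.973) and Csnk1g3 (0.972). The pattern of Kcnc4 was most similar to those of Basp1 (r = 0.991), Ip6k1 (0.965) and Kcne1l (0.958). With so few samples and so many genes, between 20 and 29 genes per member reached r of at least 0.9.

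Basp1, a growth-associated membrane protein, was among the highest genes and varied with Kcnc4 over a narrower range. It measured 535, 586 and 842 RPKM in Dbx1 replicates 1, 2 and 3 and 578, 791 and 591 RPKM in non-Dbx1 replicates 1, 2 and 3. Its highest samples were the 2 in which Kcnc4 stood apart. Kcne1l was likewise highest in those samples, at 24.5 RPKM in Dbx1 replicate 3 and 23.1 RPKM in non-Dbx1 replicate 2, and between 9.37 and 16.2 RPKM elsewhere. Both genes are named here for their similarity to Kcnc4 over these same 6 samples, so the shared peaks are no separate evidence.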

How the data were processed

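Neurons were harvested by patch pipette, 15 per sample, and their cDNA was made with SMART-Seq v4 and sequenced as single-end reads of 35 to 50 bases. The authors aligned reads to mm10 with TopHat2, sorted them with SAMtools, counted them without strand on gene names with HTSeq, and deposited RPKM per gene and sample. These values are divided by the reads on genes of each library, with no further scaling between samples. The annotation release was not given in the sources used here. The authors tested counts with DESeq2. Here the RPKM values were used, so log2(RPKM + 1) was fitted with limma 3.58.1 in R 4.3.3 (lmFit, eBayes with trend, two-sided) for the 17614 genes detected (RPKM above 0) in 3 or more samples, with p-values adjusted by Benjamini-Hochberg and called at FDR under 0.1.

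Library totals and reads per gene were recovered from the steps of the RPKM values (whole within 0.001), and recovered reads summed to between 99.6% and 99.7% of the totals. Of 15619 genes whose summed and merged exon lengths differ in GENCODE vM21, 4195 gave whole reads with the summed length and 33 with the merged length only. Levels of members were compared by exact sign-change tests over 6 pairs. Other steps used Python 3.11.15, numpy 2.4.6, pandas 2.3.3, scipy 1.17.1, biopython 1.88 and matplotlib 3.10.9. The limma step was also run on simulated data whose changes were larger than those of the members. That run therefore does not tell whether differences of the members' size would be found. All 4 members passed the filter in both groups.

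The members and the gene lists were chosen with earlier results of these data known. Beside the members, genes of the lists with a mean of at least 1 RPKM were named, and for each member the 3 genes with the highest correlation among those with a mean of at least 10 RPKM. Chosen outside this rule were the genes at 0, the genes inside Kcnb2 and the markers. Some items are not reported here. The accessory list held 9 names, of which 8 were found. Alternatives were a pseudocount of 0.1, 2 other filters, 2 scalings, limma without the trend, a replicate block, each sample left out, and voom on recovered reads, with merged exon lengths added after seeing the data. The authors state that each sample came from a different mouse, and p-values measure the spread between these samples.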

Additional observations from a re-analysis of the deposited data

How the results depend on the processing

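None of the 4 members reached FDR under 0.1 in any of the 14 alternatives run, with FDR between 0.784 and 0.999. The L2FC of Kcnc1 stayed between 0.34 and 0.72 and that of Kcnc2 between 0.38 and 1.21. With a sample left out, the L2FC of Kcnb2 ranged from -0.34 to 0.68 and that of Kcnc4 from -0.89 to 0.28. The sign turned for Kcnb2 without Dbx1 replicate 2 (-0.34) or non-Dbx1 replicate 2 (-0.24), and for Kcnc4 without Dbx1 replicate 1 (0.26), Dbx1 replicate 2 (0.13) or non-Dbx1 replicate 2 (0.28). After the group mean of each gene was subtracted, same-numbered samples had correlations of -0.107, 0.0248 and -0.0522. Differently numbered samples had correlations between -0.0824 and 0.133. These values gave no sign that the replicate numbers pair the samples, though 3 samples per group cannot exclude it. A fit with the replicate block left the L2FC of Kcnb2 at 0.14 (SE 0.81) and called 0 genes (440 and 379 at an unadjusted p under 0.05), and changed no call of a member. Over all genes, limma called 0 higher in Dbx1 and 1 higher in non-Dbx1 (480 and 436 at an unadjusted p under 0.05). The latter count was 0 with a pseudocount of 0.1, without the filter and with voom, and 3 without the trend. With a sample left out both counts ranged from 0 to 1, the former reaching 1 without non-Dbx1 replicate 2. Scalings moved the median of all genes by less than 0.1 on the log2 scale.

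Between members, leaving out any 1 sample left the difference of Kcnb2 from Kcnc1 between -0.88 and -0.49 and from Kcnc4 between -2.11 and -1.40, past the threshold in neither case (exact permutation test, adjusted p between 0.125 and 0.1875, with 0.0625 the smallest unadjusted p of 5 sign changes). With merged exon lengths Kcnb2 against Kcnc4 was -1.53 (exact permutation test, adjusted p = 0.1406), Kcnc2 against Kcnc4 passed (-1.54) and Kcnb2 against Kcnc2 turned (0.011). With the reads of Kcnc2 doubled as well, Kcnb2 against Kcnc1 (-0.75) and against Kcnc4 (-1.53) and Kcnc2 against Kcnc4 (-0.69) did not pass (exact permutation test, adjusted p = 0.1875 for each), and Kcnc1 against Kcnc2 turned (-0.086). For Kcnb2 against Kcnc1 only the adjustment changed, since the doubling does not touch this pair and it passed with merged lengths alone (exact permutation test, adjusted p = 0.09375). With a sample left out, Kcnb2 against Kcnc1 and against Kcnc4 stayed at 0.0625 (exact permutation test). Their lost calls cannot be told apart from the smaller number of samples. The cause of the other changes with a left-out sample was not tested.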
